A study of Mus musculus with 4 samples.

Results

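Cell cycle and DNA replication genes were examined as 1 set of 52 genes across 4 RNA sequencing libraries of mouse knee articular cartilage. Members were taken from the deposited gene table by exact match of the gene symbol, and all 52 were found among its 24532 genes. By function 11 of them act in S phase (Mcm2 to Mcm7, Gins1, Gins2, Pcna, Rrm1 and Rrm2), 31 act in mitosis, and the other 10 are further licensing factors, E-type cyclins with Cdk2, nucleotide and chromatin enzymes and cell cycle transcription factors. The cartilage came from male wild type C57BL/6 mice that were young (3 weeks) or adult, and was taken either from sham joints or 3 days after a full-thickness injury of the femoral groove cartilage. For the adult groups the study's methods state an age of 10 weeks, the sample titles 12 weeks and the characteristics 14 weeks. The sample titles name surgery on the meniscus for the injured groups, the methods a needle injury of the cartilage, and the adult sham label spans days 3 to 14. All groups carry the same wild type genotype, and RNA was pooled from 10 injured or 5 uninjured mice into 1 library per group. With 1 library per group no difference below has a replicate check, so values are given as levels and ratios without a test.

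Dividing cells copy their DNA in S phase and separate it in mitosis. Transcription of the S phase genes is driven largely by E2F factors once cyclin-dependent kinases have inactivated the retinoblastoma proteins, whereas mitotic genes are switched on later by the MuvB complex with B-Myb and FoxM1, often through a CHR element with CCAAT boxes. Chondrocytes of growing cartilage divide, and those of adult articular cartilage rarely do.

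The promoters of the members are shown first because the S phase and mitotic groups differed in the motifs they hold. RefSeq promoters on GRCm38.p6, the assembly of mm10, span 250 bases before to 50 after the transcription start, and were found for 42 of the 52 members, 8 of them S phase and 26 mitotic genes. An E2F motif (TTCCCGC or TTGGCGC or TTCGCGC or TTGCCGC on either strand) lay in 6 of 8 S phase promoters, 5 of 26 mitotic promoters (Ccnb1, Cdk1, Ect2, Hmmr and Mki67) and 9.69% of the promoters of 27025 genes. A CHR motif (TTTGAA or TTCGAA on either strand) lay in 2 of 8 S phase promoters (Mcm2 and Mcm7), 20 of 26 mitotic promoters and 19.4% of all promoters. CCAAT on either strand lay in 8 of 8 S phase, 21 of 26 mitotic and 37.9% of all promoters. CHR and CCAAT together lay in 2 of 8 S phase promoters (Mcm2 and Mcm7), 18 of 26 mitotic promoters and 7.70% of all. Among the 13676 promoters of genes above 0 FPKM in at least 1 library the shares were 15.3% for E2F, 14.8% for CHR and 38.4% for CCAAT. Mcm6 and Top2a are printed because they were the most abundant S phase and mitotic members whose promoter held an E2F or a CHR motif. Rrm2, the S phase gene with the largest injury ratio, and Cdk1, the kinase of mitotic entry, were added after their values had been seen. Capitals mark E2F, CHR and CCAAT motifs on either strand, and the sequences read 5′ to 3′ on the strand of the gene. They lie at chr1:128359656-128359955 on the minus strand (Mcm6), chr12:24708004-24708303 on the plus strand (Rrm2), chr11:99024140-99024439 on the minus strand (Top2a) and chr10:69352863-69353162 on the minus strand (Cdk1), each across the transcription start of its gene.
Mcm6: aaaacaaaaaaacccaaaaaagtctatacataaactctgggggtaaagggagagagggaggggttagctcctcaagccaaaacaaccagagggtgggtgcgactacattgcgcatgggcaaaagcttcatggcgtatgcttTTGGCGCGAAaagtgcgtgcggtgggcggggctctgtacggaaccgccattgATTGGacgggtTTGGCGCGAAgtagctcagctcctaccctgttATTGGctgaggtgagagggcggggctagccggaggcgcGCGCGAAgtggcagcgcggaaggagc
Rrm2: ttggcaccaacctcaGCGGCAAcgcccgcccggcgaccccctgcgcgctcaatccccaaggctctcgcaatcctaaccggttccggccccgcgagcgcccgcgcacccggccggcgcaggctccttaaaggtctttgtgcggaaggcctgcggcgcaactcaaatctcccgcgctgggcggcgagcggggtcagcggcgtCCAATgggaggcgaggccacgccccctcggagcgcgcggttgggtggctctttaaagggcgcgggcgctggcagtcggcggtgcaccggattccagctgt
Top2a: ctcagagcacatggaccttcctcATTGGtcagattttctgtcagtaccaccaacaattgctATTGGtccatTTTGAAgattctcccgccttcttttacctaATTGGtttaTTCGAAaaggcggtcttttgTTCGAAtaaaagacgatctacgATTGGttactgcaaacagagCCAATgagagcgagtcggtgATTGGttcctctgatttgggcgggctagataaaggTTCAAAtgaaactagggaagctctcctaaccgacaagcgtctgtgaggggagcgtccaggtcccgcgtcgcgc
Cdk1: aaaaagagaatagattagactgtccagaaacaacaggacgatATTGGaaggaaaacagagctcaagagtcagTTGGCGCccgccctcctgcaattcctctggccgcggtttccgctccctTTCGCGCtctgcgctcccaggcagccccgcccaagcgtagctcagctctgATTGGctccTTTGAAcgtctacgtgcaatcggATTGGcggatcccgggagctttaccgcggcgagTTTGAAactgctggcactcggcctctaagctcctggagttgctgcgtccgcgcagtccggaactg

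With the start site at position 0, the Mcm6 promoter held TTGGCGC at −109 and −46, each overlapped by the reverse form GCGCGAA at −106 and −43, and a further GCGCGAA at 24. CCAAT boxes in reverse lay at −57 and −14. In Rrm2 an E2F motif in reverse at −235 and 1 CCAAT box at −50 were present. The Top2a promoter held 4 CHR motifs, at −179, −140, −120 and −23, and 6 CCAAT boxes. That of Cdk1 held both kinds, with E2F motifs at −178 and −130, CHR motifs at −71 and −15 and 3 CCAAT boxes. A match describes letters in this window and does not show that a factor binds there.

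Levels are given as FPKM, a count of fragments divided by the length of the transcript and by the mapped total of its library, which can be compared between genes because of the division by length. All 52 members were above 0 in all 4 libraries. The adult sham library stood apart in composition, with 26.5% of its FPKM in its 10 most abundant genes against 14.7% to 17.5% in the others. The summed level of the members was 509.0 FPKM in sham and 918.3 FPKM in injured cartilage of young mice, and 205.7 FPKM in sham and 362.7 FPKM in injured cartilage of adult mice. This corresponded to 0.103%, 0.172%, 0.0409% and 0.0772% of all FPKM in the same order. Under 1 FPKM were 15 members in adult sham cartilage and 1, Cdc6, in adult injured cartilage, whereas all members reached 1 FPKM in both young libraries. The order of the libraries was shared by most members. In 44 of 52 the level was highest in young injured, then young sham, then adult injured, and lowest in adult sham cartilage. In 6 more (Cdt1, Plk1, Cenpa, Birc5, Kif2c and Anln) adult injured cartilage was above young sham cartilage. Mcm6 and Cdk2 had orders of their own, given below. Of all 18181 genes above 0 in at least 1 library, 11933 were lower in adult than in young sham cartilage. Between the injured libraries 10267 were lower in adult cartilage. After injury 12223 were higher in adult and 8623 in young cartilage. The share of all genes with the order of most members was not calculated. In tissue pools a lower level can reflect fewer dividing cells or less RNA per cell, and the 2 cannot be told apart.

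**Figure D1:**
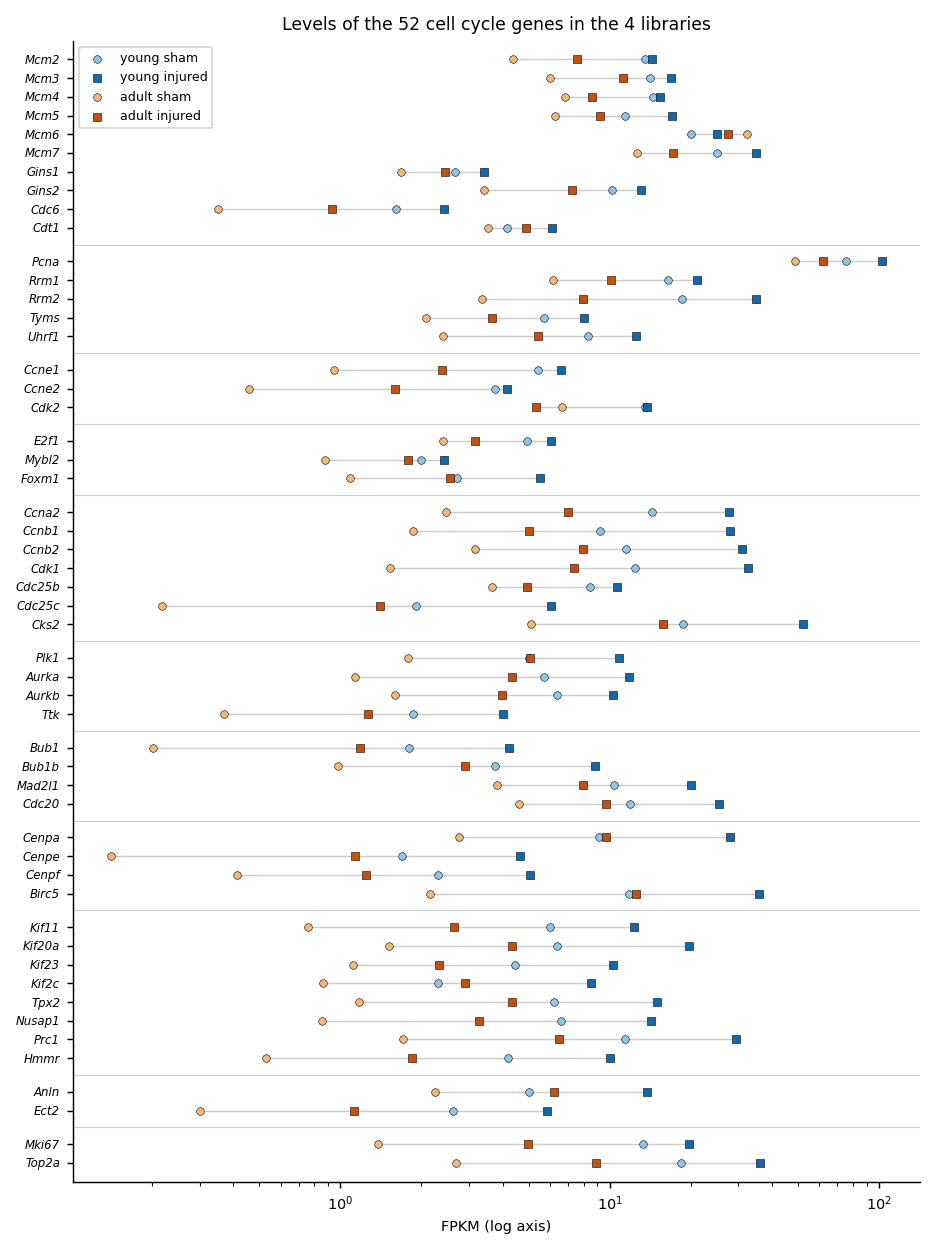
FPKM of each of the 52 members (log axis) in the 4 libraries, 1 point per library, with genes grouped by role from DNA replication at the top to chromosome proteins at the bottom. Young injured cartilage has the highest point in 51 members and adult sham cartilage the lowest in 50; the exceptions are Mcm6 and Cdk2.

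Each difference between libraries is given as the log2 ratio of FPKM + 1, and a difference of 2-fold or more on this scale was counted. The added 1 FPKM understates ratios of genes with low values. After injury of young cartilage 17 of 52 members were 2-fold higher and 0 were 2-fold lower, while 4.57% of all 18181 genes above 0 in at least 1 library were higher and 1.27% lower. All 52 log2 ratios were above 0, between 0.03 (Cdk2) and 1.53 (Kif2c), with a median of 0.88 against 0.00 over all genes. After injury of adult cartilage 19 members were 2-fold higher and 0 lower, with 6.90% of all genes higher and 1.46% lower. The median of the members was 0.90 against 0.14 over all genes, and 50 of 52 ratios were above 0, from −0.27 (Cdk2) to 2.09 (Birc5). Between the sham libraries 38 members were 2-fold lower and 0 higher in adult cartilage, where 10.6% of all genes were lower and 2.66% higher, with a median log2 ratio of −1.28 against −0.15 over all genes. Between the injured libraries 33 members were 2-fold lower and 0 higher in adult cartilage, with 3.09% of all genes lower and 1.80% higher and medians of −1.25 and −0.04. Each library enters 2 of these 4 comparisons, so the comparisons are not independent of each other.

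The general level differed between the libraries and was taken into account where it changed a direction. Over the 10891 genes that reached 1 FPKM in every library, the median was 0.23 (log2) for adult injury and −0.30 for adult against young sham cartilage, and median-of-ratios scaling moved these medians to −0.00 and 0.02. Of all genes 4.76% were then 2-fold higher and 2.50% lower after adult injury, and 5.35% higher and 5.55% lower in adult than in young sham cartilage. Of the members 11 were 2-fold higher after adult injury and 30 were 2-fold lower in adult sham cartilage under this scaling, with medians of 0.73 and −1.09. Rescaling to equal sums gave 34 members higher after adult injury, with 11.05% of all genes higher. Quantile normalization gave 6 members, with 3.99% of all genes. The count and the share of all genes thus both depend on the scaling. The median of the members stayed above 0 for both injuries and below 0 for both age comparisons under all 3 scalings.

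The genes that license origins and unwind DNA come first among the S phase members. Mcm2 to Mcm7 form the ring of the replicative helicase, and Gins1 and Gins2 belong to the GINS complex that activates it. Mcm2 measured 13.5, 14.4, 4.38 and 7.57 FPKM, given for young sham and young injured and then for adult sham and adult injured cartilage, the order of all 4 values below. Mcm7 measured 24.9, 34.8, 12.6 and 17.3 FPKM, and Mcm5 11.4, 17.1, 6.25 and 9.21 FPKM. The young libraries were above both adult libraries for these 3 genes, with injured above sham at each age. The young injury ratios (log2) were small, 0.08 for Mcm2, 0.47 for Mcm7 and 0.55 for Mcm5. Mcm3 and Mcm4 had young injury ratios of 0.24 and 0.08 and adult injury ratios of 0.80 and 0.29. With equal sums in each library Mcm2 and Mcm4 were below 0 in young injury, and with quantile normalization Mcm4 and Gins1 were below 0 in adult injury. Gins2 measured 10.2, 13.1, 3.41 and 7.27 FPKM, and its exon bases overlap those of Gse1 on the opposite strand for 67.3%, so that its level is uncertain where strand was not used in counting.

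Mcm6 did not follow the other helicase subunits. Its level was 20.1, 25.0, 32.3 and 27.5 FPKM. Adult sham cartilage, lowest in 50 of the 52 members, was highest here, and young sham cartilage was lowest. The log2 ratio of injured to sham was 0.30 in young and −0.23 in adult cartilage, and that of adult to young sham cartilage was 0.66. These directions were the same under all 3 scalings, with values of 0.33, −0.50 and 1.04 after median-of-ratios scaling. The other 5 Mcm genes had sham ratios between −1.43 (Mcm2) and −0.77 (Mcm5).

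The licensing factors completed this role. Cdc6 and Cdt1 load the Mcm ring onto origins. Cdc6 measured 1.61, 2.43, 0.351 and 0.929 FPKM, and Cdt1 4.14, 6.13, 3.52 and 4.88 FPKM. Both were highest in young injured and lowest in adult sham cartilage, but the levels of Cdt1 lay close together, and its sham ratio of −0.18 was above 0 after median-of-ratios scaling and quantile normalization.

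Pcna, the sliding clamp of the DNA polymerases, was the most abundant member, with 75.4, 103, 48.9 and 62.2 FPKM. Its injury ratios were 0.44 in young and 0.34 in adult cartilage, and 23.3% of its 31-base transcript words also occur in another gene. For Mcm7, Cdc20, Uhrf1 and Mybl2 these shares were 26.8%, 25.5%, 24.2% and 21.0%. Rrm1 and Rrm2 encode the large and the small subunit of ribonucleotide reductase, which makes deoxynucleotides, and the small subunit is the one whose amount limits the enzyme in S phase. Rrm1 measured 16.5, 21.0, 6.16 and 10.1 FPKM. Rrm2 measured 18.6, 34.9, 3.35 and 7.94 FPKM. The levels of the subunits were close in young sham cartilage, but Rrm2 was above Rrm1 in young injured cartilage and below it in both adult libraries. Rrm2 had the largest injury ratios of the S phase genes at both ages (0.87 and 1.04), the only one at 2-fold in adult cartilage on the scale of FPKM + 1, and the lowest age ratios of that group (−2.17 in sham and −2.01 in injured cartilage). After median-of-ratios scaling and quantile normalization 0 S phase genes were 2-fold higher in adult injury, and with equal sums 2 were. Tyms, which makes thymidylate, measured 5.69, 8.02, 2.08 and 3.65 FPKM, and Uhrf1, which carries DNA methylation to the new strand, 8.34, 12.5, 2.40 and 5.44 FPKM. Both had the library order of most members and injury ratios between 0.43 and 0.92.

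The E-type cyclins with Cdk2 drive entry into S phase. Ccne1 measured 5.41, 6.61, 0.949 and 2.38 FPKM, and Ccne2 3.75, 4.14, 0.456 and 1.60 FPKM. Both were among the 15 members under 1 FPKM in adult sham cartilage, with sham ratios of −1.72 and −1.70, and their injury ratios were 0.25 and 0.12 in young and 0.80 and 0.84 in adult cartilage. Cdk2 measured 13.5, 13.8, 6.63 and 5.32 FPKM, so that its level was nearly equal in both young libraries and lowest in adult injured cartilage. Its adult injury ratio of −0.27 was below 0 under all 3 scalings, and its young ratio of 0.03 turned to −0.08 with equal sums. Of the transcription factors, E2f1 is the activator of S phase genes, Mybl2 (B-Myb) and Foxm1 those of mitotic genes. Foxm1 measured 2.71, 5.49, 1.08 and 2.55 FPKM, with injury ratios of 0.81 and 0.77, while E2f1 (0.25 and 0.29) and Mybl2 (0.19 and 0.57) had smaller ones, and E2f1 was below 0 in adult injury with quantile normalization. None of these 6 genes was 2-fold higher after injury at either age on the scale of FPKM + 1. As plain folds Ccne2 (3.51), Ccne1 (2.51), Foxm1 (2.36) and Mybl2 (2.05) exceeded 2-fold in adult cartilage and Foxm1 (2.03) in young cartilage.

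The cyclins and activators of mitotic entry had higher injury ratios. Cdk1 is the kinase that drives mitosis, Ccna2, Ccnb1 and Ccnb2 are its cyclins, Cdc25b and Cdc25c the phosphatases that activate it, and Cks2 a small subunit. Cdk1 measured 12.4, 32.5, 1.53 and 7.35 FPKM. Ccnb1 measured 9.23, 28.0, 1.86 and 5.02 FPKM, and Ccna2 14.4, 27.7, 2.47 and 7.03 FPKM. Injured cartilage was above sham at both ages in all 3 genes, and both adult libraries were below both young ones. The log2 injury ratios were 1.32 in young and 1.72 in adult cartilage for Cdk1, 1.501 and 1.07 for Ccnb1, and 0.90 and 1.21 for Ccna2. Cks2, the most abundant mitotic member, measured 18.7, 52.2, 5.09 and 15.8 FPKM. Cdc25c had the lowest levels of this role, 1.92, 6.08, 0.218 and 1.40 FPKM, and if the smallest steps of the FPKM values correspond to single fragments, it rested on 13.1 fragments in adult sham cartilage, the lowest number among the 30 members with a single transcript. Cdc25b had the smallest injury ratios of all mitotic members (0.31 and 0.35), and its adult value was below 0 with quantile normalization. Of the 7 genes 5 were 2-fold higher after injury at each age, 7 were 2-fold lower in adult than in young sham cartilage and 6 in adult than in young injured cartilage. Ccnb1 and Cks2 share 27.7% and 31.7% of their 31-base transcript words with another gene.

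Plk1 and the Aurora kinases control spindle assembly and chromosome segregation, and Ttk starts the spindle checkpoint. Plk1 measured 5.02, 10.9, 1.78 and 5.06 FPKM, and Aurka 5.70, 11.8, 1.13 and 4.34 FPKM. Plk1 was thus at nearly the same level in young sham and adult injured cartilage, whereas Aurka was lower in the latter. The injury ratios were 0.98 and 1.12 for Plk1, 0.93 and 1.32 for Aurka, 0.61 and 0.94 for Aurkb, and 0.81 and 0.73 for Ttk, in young and adult cartilage. The checkpoint genes Bub1, Bub1b and Mad2l1, and Cdc20, the activator of the anaphase-promoting complex that the checkpoint holds back, had injury ratios from 0.89 to 1.05 in young and from 0.86 to 0.98 in adult cartilage on the log2 scale of FPKM + 1. Without the added 1 the adult folds ranged from 2.0996 (Mad2l1) to 5.85 (Bub1). Their sham ratios lay between −1.27 and −1.20, with plain folds from 0.112 (Bub1) to 0.389 (Cdc20), and all 4 genes were 2-fold lower in adult cartilage, sham or injured. Bub1 had the lowest adult sham level of the 4, with 1.80, 4.23, 0.202 and 1.18 FPKM.

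Centromere and spindle genes included the members with the highest log2 injury ratio at each age, Kif2c in young and Birc5 in adult cartilage. Birc5 (survivin), a subunit of the chromosomal passenger complex, measured 11.8, 35.8, 2.16 and 12.5 FPKM. Cenpa, the histone H3 variant of centromeres, measured 9.13, 27.9, 2.76 and 9.69 FPKM, and Cenpe, a kinetochore motor, 1.69, 4.65, 0.141 and 1.13 FPKM. In Birc5 and Cenpa adult injured cartilage was slightly above young sham cartilage. The adult injury ratio of Birc5 was 2.09 on the log2 scale of FPKM + 1, against 1.53 in young cartilage, while the plain adult folds of the low genes Cenpe (8.01), Cdc25c (6.45) and Bub1 (5.85) were above its own (5.78). Cenpf, another kinetochore protein, measured 2.30, 5.07, 0.413 and 1.24 FPKM, with injury ratios of 0.88 and 0.67, and Cenpa had 1.52 in young and 1.51 in adult cartilage. Cenpe had the lowest level of all members in any library, 0.141 FPKM in adult sham cartilage. The spindle motors and their partners comprised Kif11, which separates the spindle poles, Kif20a, Kif23 and Prc1 of the central spindle, the microtubule depolymerase Kif2c, and the spindle proteins Tpx2, Nusap1 and Hmmr. Kif2c measured 2.30, 8.54, 0.858 and 2.90 FPKM, and had the highest young injury ratio of all members (1.53). Kif20a measured 6.39, 19.8, 1.51 and 4.34 FPKM, and Prc1 11.4, 29.5, 1.71 and 6.47 FPKM. Each was highest in young injured and lowest in adult sham cartilage, and 6 of the 8 genes were 2-fold higher after injury at each age. The exons of Kif20a overlap those of Cdc23 on the opposite strand for 29.3% of its bases. Anln and Ect2, which act in cytokinesis, had injury ratios of 1.298 and 0.92 in young and 1.15 and 0.70 in adult cartilage.

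Mki67, the coat protein of mitotic chromosomes and a common marker of proliferation, measured 13.3, 19.7, 1.38 and 4.97 FPKM. Top2a, the topoisomerase that untangles sister chromosomes, measured 18.3, 36.0, 2.69 and 8.89 FPKM. Young libraries were far above adult ones for both genes, and on the log2 scale of FPKM + 1 Mki67 had the lowest sham age ratio of all members (−2.59), followed by Cdk1 (−2.40) and Top2a (−2.39). As a plain fold Cenpe (0.0835) was below Mki67 (0.103). Bub1 (0.112), Cdc25c (0.114), Ect2 (0.116) and Ccne2 (0.122) then came before Cdk1 (0.124), and further members lay between Cdk1 and Top2a (0.146). Among the mitotic members Mki67 had the lowest young injury ratio after Cdc25b, 0.54, against 1.33 in adult cartilage, and for Top2a these were 0.94 and 1.42.

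S phase and mitotic members were then compared as groups. After injury the median log2 ratio of the 31 mitotic genes was 1.05 in young and 1.07 in adult cartilage, and that of the 11 S phase genes 0.33 and 0.49, differences of 0.72 and 0.58. In young cartilage 27 of 31 mitotic genes were above the highest S phase gene (Rrm2), and in adult cartilage 18 of 31. At 2-fold there were 17 of 31 mitotic and 0 of 11 S phase genes in young cartilage, and 18 of 31 and 1 of 11 in adult cartilage. With equal sums, median-of-ratios scaling and quantile normalization the adult counts were 28, 11 and 6 mitotic and 2, 0 and 0 S phase genes. Of all genes 11.05%, 4.76% and 3.99% were then 2-fold higher. Between the ages the mitotic genes were also further apart, with sham medians of −1.51 for mitotic and −0.98 for S phase genes and injured medians of −1.56 and −0.77. In each age comparison 29 of 31 mitotic genes were 2-fold lower in adult cartilage, and of the S phase genes 5 of 11 in sham (Mcm2, Mcm3, Gins2, Rrm1 and Rrm2) and 1 of 11 in injured cartilage (Rrm2). Between the shams the 3 scalings gave 31, 24 and 21 mitotic and 6, 3 and 2 S phase genes. Of all genes 14.9%, 5.55% and 5.27% were then 2-fold lower. The 10 other members had medians of 0.32 and 0.58 for young and adult injury and −0.94 and −0.91 for adult against young sham and injured cartilage. The difference between the group medians in sham cartilage was reduced to −0.04 with a pseudocount of 5 FPKM, where the mitotic genes had a median of 1.51 FPKM in adult sham cartilage, and was −1.17 with 0.1 FPKM.

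**Figure D2:**
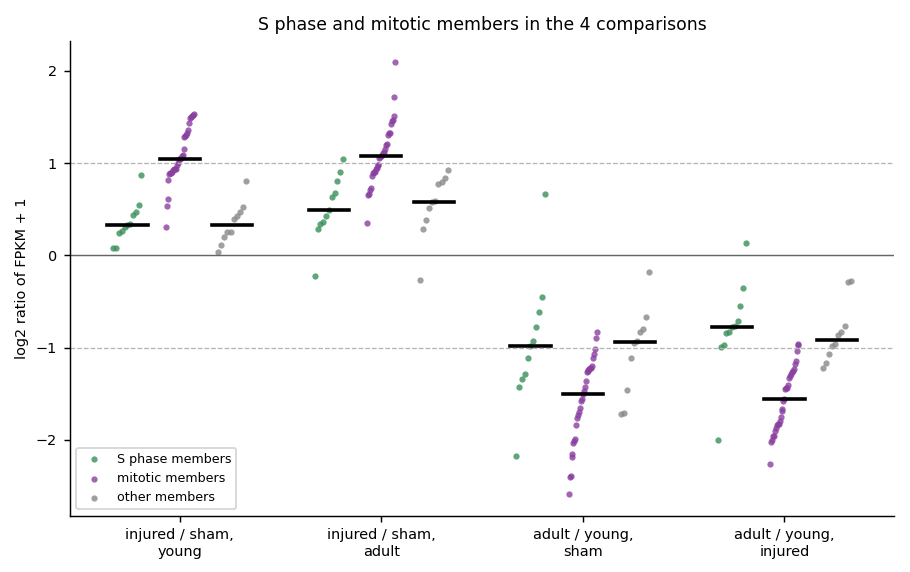
Log2 ratio of FPKM + 1 of each member in the 4 comparisons, 1 point per gene, with a black bar at the median of each group and dashed lines at 2-fold. The mitotic medians are 1.05 and 1.07 for injury and the S phase medians 0.33 and 0.49, and for the age comparisons the mitotic medians are lower than the S phase medians.

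A ratio within a library does not depend on a scaling factor between libraries, and was calculated from the summed FPKM of the groups. The S phase genes summed to 221.9, 298.5, 131.9 and 171.2 FPKM and the mitotic genes to 235.1, 552.2, 53.1 and 159.8 FPKM. The mitotic to S phase ratio was 1.06 in sham and 1.85 in injured cartilage of young mice, and 0.402 in sham and 0.933 in injured cartilage of adult mice. Injured cartilage was above sham cartilage at both ages, and young above adult cartilage in both states, with adult injured cartilage below young sham cartilage. Pcna, the most abundant member, weighs on the S phase sum. Without it, an alternative chosen after seeing the data, the ratio was 1.60, 2.82, 0.639 and 1.47, and with the median FPKM of each group it was 0.441, 0.806, 0.245 and 0.472. Young injured cartilage was highest and adult sham cartilage lowest in all 3 calculations, whereas adult injured cartilage was above young sham cartilage when medians were used.

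**Figure D3:**
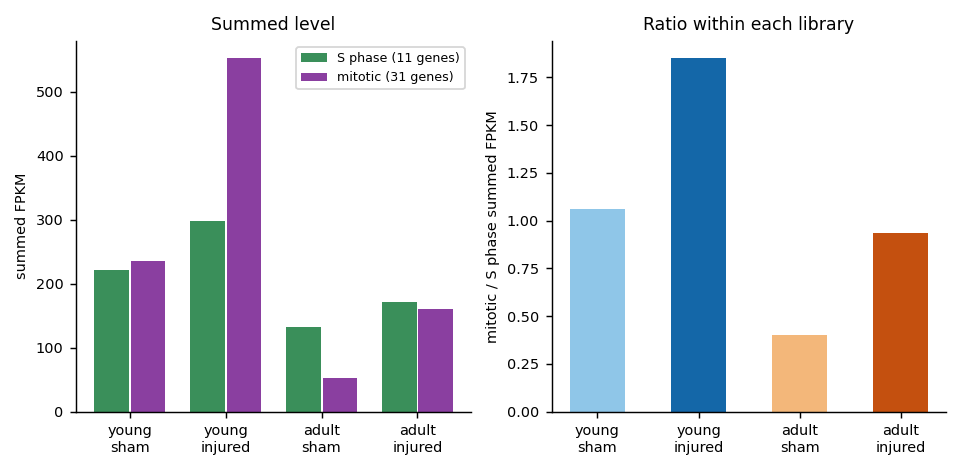
Left, summed FPKM of the 11 S phase and the 31 mitotic members in each library. Right, the mitotic sum divided by the S phase sum within each library, from 0.402 in adult sham to 1.85 in young injured cartilage.

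The size of the injury ratio was set side by side at both ages, without a test. On the log2 scale of FPKM + 1 it was larger in young cartilage for 23 of 52 members, with a median young minus adult difference of −0.04. As a plain ratio of FPKM, without an added 1, it was larger in adult cartilage for 40 of 52, with median folds of 1.996 in young and 2.67 in adult cartilage. For mitotic members the median folds were 2.35 and 3.37. The levels themselves were lower in adult cartilage, with a median of 4.34 FPKM for the mitotic members in adult injured and 13.8 FPKM in young injured cartilage. The age with the larger ratio depended on the scaling and on the added 1 FPKM. On the log2 scale of FPKM + 1, 6 members had the larger ratio in young cartilage with equal sums, 35 after median-of-ratios scaling and 39 after quantile normalization. As plain ratios 2, 21 and 27 members were larger in young and 50, 31 and 25 in adult cartilage under these scalings. For the 31 mitotic members 31, 20 and 16 plain ratios were larger in adult cartilage. Their median young minus adult differences (log2) were −0.76, −0.25 and −0.02.

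**Figure D4:**
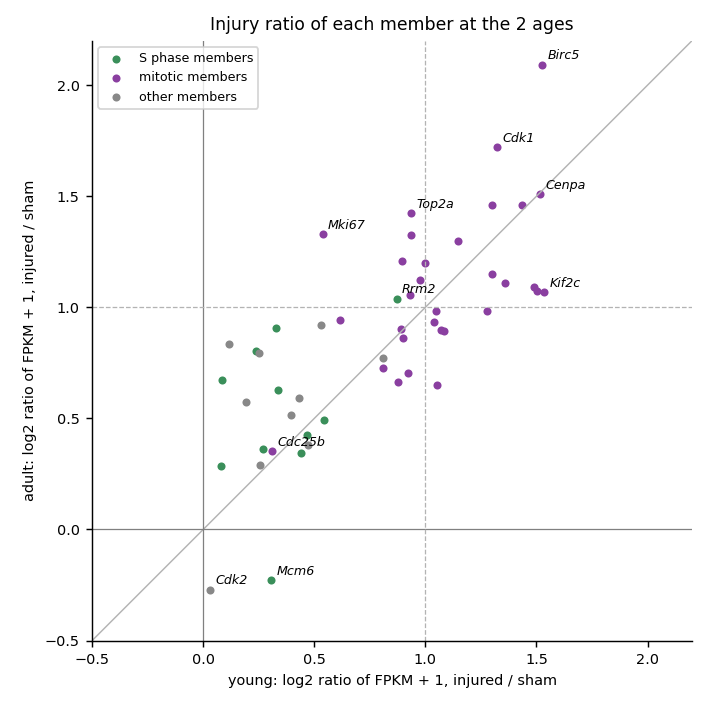
Log2 ratio of FPKM + 1, injured to sham, in young (horizontal) against adult cartilage (vertical), 1 point per member, with the diagonal of equal ratios and dashed lines at 2-fold. Cdk2 and Mcm6 are the points below 0 in adult cartilage, Birc5 has the highest adult ratio (2.09), and Mki67 lies well above the diagonal (0.54 and 1.33).

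Adult injured cartilage was also set against young sham cartilage as levels. The median ratio of FPKM was 0.663 over all members, 0.713 over S phase and 0.668 over mitotic members, and 7 members (Mcm6 and the 6 named above with adult injured above young sham cartilage) were above 1.

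Genes of the same processes outside the set were read in the same way. Of 45 other replication genes, which include polymerases, clamp loaders and origin proteins, 2 were 2-fold higher after injury of young cartilage (Tk1 and Gmnn) and 5 after injury of adult cartilage (Cdc7, Tk1, Dbf4, Gmnn and Chaf1b), with 0 lower at either age. These are 4.44% and 11.1% of the list, of which the young share does not exceed the 4.57% of all genes. Their medians were 0.18 and 0.49, and −0.81 and −0.61 for adult against young sham and injured cartilage. Tk1, a thymidine kinase, had injury ratios of 1.33 and 1.11, and Gmnn, the inhibitor of Cdt1 (geminin), 1.13 and 1.27, both well above the S phase median. The most abundant of them, Rfc2, Slbp and Pold2, had young injury ratios of 0.36, 0.02 and −0.18. Of 66 other mitotic genes 15 were 2-fold higher after injury in young and 16 in adult cartilage, 0 were lower, and 42 were lower in adult than in young sham and 46 in adult than in young injured cartilage. Their medians, 0.81 and 0.78 for injury and −1.13 and −1.14 for age, lay between those of the S phase and mitotic members in the injury comparisons. The most abundant of them, Cks1b, Zwint and Pttg1, had injury ratios of 0.48, −0.17 and 0.18 in young and 0.34, −0.25 and 0.43 in adult cartilage, all below the medians of their list.

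The upstream regulators showed smaller ratios. Of 21 genes of the D cyclins, the retinoblastoma family and the E2F factors, 1 was 2-fold higher (Ccnd1, 1.25) and 1 lower (Ccnd2, −1.18) after injury of young cartilage, and 1 higher (E2f3, 1.296) and 0 lower after injury of adult cartilage. Each count of 1 is 4.76% of the list. Of all genes 4.57% were higher and 1.27% lower after young injury, and 6.90% higher after adult injury. The counts of higher genes are thus near or below the share of all genes. The medians were 0.12 and 0.30 for injury and −0.60 and −0.31 for adult against young sham and injured cartilage. Cdk4, the most abundant, measured 130.8, 148.2, 48.1 and 83.2 FPKM, Ccnd3 had injury ratios of −0.12 and 0.15, and Tfdp1 had 0.07 and 0.47. Of the 21 genes 6 were 2-fold lower in adult than in young sham cartilage and 1 (E2f2) in injured cartilage. These are 28.6% and 4.76% of the list, against 10.6% and 3.09% of all genes.

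Markers of other cell types were read beside the members. The labels call the cells chondrocytes, and all 13 chondrocyte markers were at 1 FPKM or more in every library, summing to 19780, 17447, 12381 and 11509 FPKM, with Col2a1, Comp and Lect1 the most abundant. As single genes they also differed with age and injury. In adult against young sham cartilage 10 of the 13 were 2-fold lower, with a median log2 ratio of −1.75 against −1.28 for the members, and 1 (Comp) was 2-fold higher. After adult injury 5 of 13 (Acan, Col11a1, Col9a1, Col9a2 and Matn1) were 2-fold higher, with a median of 0.68, while the median after young injury was −0.28 and 1 marker (Matn1) was 2-fold lower.

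The 13 matched erythroid precursor markers, led by Alas2, Tfrc and Slc4a1, summed to 299.0, 381.5, 56.5 and 76.4 FPKM, and all 13 were 2-fold lower in adult than in young sham cartilage. After adult injury 1 of them, Tfrc, was 2-fold higher (log2 1.51, from 11.4 to 34.5 FPKM), and 7 of 13 were below 0. This 1 marker is 7.69% of the list, against 6.90% of all genes. Those of B cell precursors, led by Cd79b, Cd79a and Vpreb3, summed to 53.4, 76.2, 14.0 and 19.5 FPKM, with 6 of 10 2-fold lower in adult sham cartilage and Rag2 at 0 in adult injured cartilage. The 10 markers of neutrophil precursors, led by Ngp, Camp and Ltf, summed to 326.4, 564.9, 354.9 and 520.3 FPKM, and had median age ratios of 0.17 in sham and 0.14 in injured cartilage, with 6 of 10 above 0 in each. Erythroid and B cell precursor markers were thus lower in adult cartilage as the members were. After injury the medians of the erythroid, B cell and neutrophil precursor lists were 0.06, 0.15 and 0.60 in young and −0.00, 0.00 and 0.43 in adult cartilage, and 9 of the 10 neutrophil precursor markers were above 0 at each age.

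Macrophage and endothelial markers, and most fibroblast markers, were higher in injured cartilage. All 12 macrophage markers, led by Lyz2, C1qb and C1qc, were 2-fold higher after injury at both ages, with sums of 202.5, 1965, 332.0 and 1717 FPKM. Those of endothelium, led by Plvap, Pecam1 and Emcn, summed to 16.3, 79.7, 17.97 and 65.8 FPKM with 6 of 7 genes 2-fold higher at each age. Those of fibroblasts, led by Fn1, Col1a2 and Col3a1, summed to 1619, 4194, 1457 and 6422 FPKM, with 4 of 8 2-fold higher after young injury (Col1a1, Fn1, Thy1 and Postn) and 5 of 8 after adult injury (Col3a1, Col1a1, Col1a2, Fn1 and Postn). Dpt was below 0 at both ages (−0.64 and −1.08), and 2-fold lower after adult injury. The remaining lists had other patterns. Osteoblast markers, led by Col1a1 (also a fibroblast marker here), Alpl and Bglap, summed to 456.4, 933.0, 1651 and 2067 FPKM. Hypertrophic and growth plate markers, led by Ibsp, Col10a1 and Mmp13, summed to 863.8, 1508, 4770 and 7360 FPKM with medians of −0.06 and 0.29 after young and adult injury. Muscle markers, led by Acta1, Tnni2 and Mylpf, had sums of 826.4, 645.0, 1453 and 417.8 FPKM, with 6 of 8 2-fold lower and a median of −1.32 after adult injury. After young injury their median was −0.04, with 2 of 8 2-fold lower (Myh1 and Tnni2) and 3 above 0. T and NK cell markers, led by Nkg7, Cd3d and Cd4, stayed low, at 1.45, 3.17, 1.31 and 6.86 FPKM, with 0 of 8 at 1 FPKM in both sham libraries and 1 (Nkg7) in both injured libraries. Housekeeping genes, led by Rplp0, Ppia and Actb, had a median ratio of 0.17 and 0.30 for injury and −0.52 and −0.19 for age. The part of each of these cell types in the levels of the cell cycle genes was not tested.

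**Figure D5:**
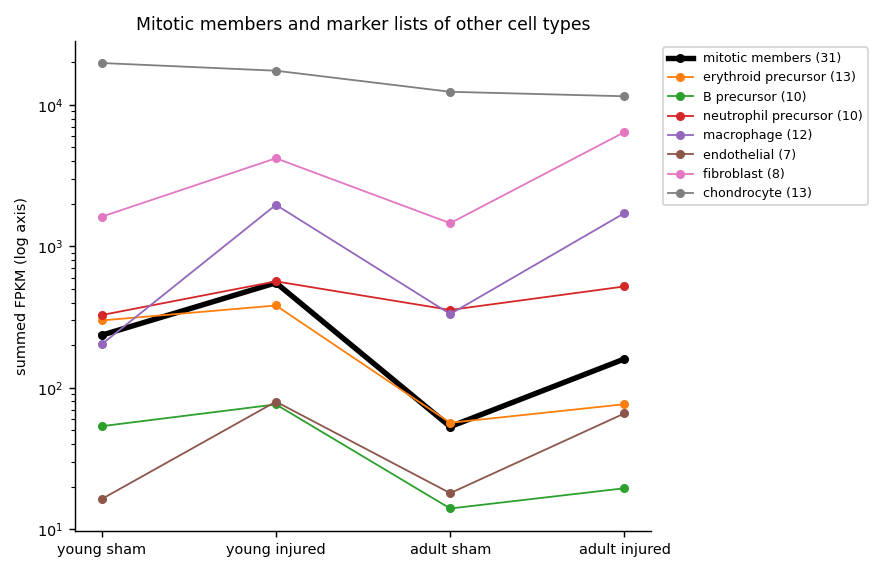
Summed FPKM (log axis) of the 31 mitotic members (black) and of marker lists of other cell types in the 4 libraries, with the number of genes in each list in the legend. Erythroid and B cell precursor lists are lower in both adult libraries, and the sums of the macrophage, endothelial and fibroblast lists are higher in both injured libraries.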

How the data were processed

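Total RNA of each pool was sequenced by the authors as a poly-A selected, strand-specific library. They deposited FPKM per gene and library, already divided by transcript length and mapped fragments. The submitters' processing notes name the build mm10 and HISAT2 2.1.0, HISAT, STAR, SAMtools and StringTie 1.3.4d without giving their roles, and the strand setting of the counting is not given in the sources used here. The smallest steps of FPKM times transcript length gave depths (fragments, in units of 1000000) of 26.3, 26.3, 30.8 and 25.8 if 1 step is 1 fragment, and no counting error is given. No further scaling was applied for the main values. Ratios used a pseudocount of 1 FPKM and a threshold of 2-fold, over the 18181 genes above 0 in at least 1 library. All 52 members are named. From other lists the 3 genes with the highest mean FPKM are named, and counts of 5 or fewer genes past 2-fold are given by name. The lists are other replication and mitotic genes, D cyclins with Rb and E2F, and markers of chondrocytes, hypertrophic chondrocytes, erythroid, B cell and neutrophil precursors, macrophages, fibroblasts, osteoblasts, endothelium, muscle, T and NK cells and housekeeping genes. Ahsp was not matched, and Cnmd was matched as Lect1. Members and lists were chosen with earlier results of these data known. Other examples named were chosen after their values were seen. Alternatives were other pseudocounts, thresholds, a filter and 3 scalings. Shared sequence was measured as 31-base words of GENCODE transcripts. The scripts were run on simulated data without noise, in which changes well beyond the threshold had been set. Recovery of these changes was fixed in advance, so the run checked the arithmetic only. Python 3.11.15, numpy 2.4.6, pandas 2.3.3 and matplotlib 3.10.9 were used.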

Additional observations from a re-analysis of the deposited data

Results flagged for a closer look

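For 2 members the injury ratio went in opposite directions at the 2 ages. The log2 ratio of injured to sham Mcm6 was 0.30 in young and −0.23 in adult cartilage, a young minus adult difference of 0.53. That of Cdk2 was 0.03 in young and −0.27 in adult cartilage, a difference of 0.30. With 1 library per group the difference was not tested. The opposite directions of Mcm6 were found under all 3 scalings, while those of Cdk2 were not found with equal sums, where both ratios were below 0.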

How the results depend on the processing

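The median ratio of the members in each of the 4 comparisons and the mitotic minus S phase differences of medians kept their direction under every alternative run. The single members whose direction reversed (Cdk2, Mcm2 and Mcm4 in young injury, Cdc25b, Mcm4, Gins1 and E2f1 in adult injury, Cdt1 between the shams) are given with the results. On the scale of FPKM + 1 the age with the larger injury ratio also turned with the scaling. The median young minus adult difference over the members went from −0.04 to 0.13 after median-of-ratios scaling and 0.21 after quantile normalization. From plain ratios (log2) it was −0.42 as deposited, −0.64 with equal sums, −0.12 after median-of-ratios scaling and 0.07 after quantile normalization. For the mitotic members the plain median stayed below 0 under all 3 scalings. Of the alternative values 69 moved by less than 0.1 on the log2 scale, ratios within a library included, or by less than 1.5-fold for counts. The 58 that moved more follow, and their cause was not tested beyond what each alternative changes by construction. With a pseudocount of 0.1 FPKM the median log2 ratio of the members was 1.35 for adult injury (36 members at 2-fold), −1.85 for adult against young sham and −1.43 for injured cartilage. The mitotic minus S phase difference of medians was then 0.84 and 1.06 for young and adult injury and −1.17 and −1.10 for the sham and injured age comparisons. With 5 FPKM the medians were 0.49, 0.42, −0.75 and −0.78 in the same order of comparisons, the counts 8 and 2 higher and 10 and 18 lower, and the differences 0.45, 0.21, −0.041 and −0.43. With equal sums (TPM) adult injury gave a median of 1.16, 34 members and a difference of 0.76, the sham comparison a median of −1.61 and a difference of −0.73, and the injured age comparison a difference of −0.89. Median-of-ratios scaling gave a median of 0.73 and 11 members for adult injury, and −1.09 with a difference of −0.63 for the sham comparison. Quantile normalization gave 0.57 and 6 members for adult injury, −1.01 for the sham comparison and a mitotic to S phase ratio of 0.461 in adult sham cartilage. At 1.5-fold 31 and 40 members were higher after young and adult injury, and at 3-fold 0 and 2, with 16 and 15 lower in the age comparisons. The share of all genes at other pseudocounts and thresholds was not calculated, so these counts have no background beside them. The mitotic to S phase ratio, young sham and young injured first and then adult sham and adult injured, was 0.889, 1.57, 0.358 and 0.818 with 18 S phase genes in place of 11, and 0.441, 0.806, 0.245 and 0.472 from medians, where adult injured passed young sham cartilage. Other alternatives were chosen after seeing the data. It was 1.60, 2.82, 0.639 and 1.47 without Pcna, and 1.70, 2.88, 0.597 and 1.48 without the 9 members that share 20% or more of their sequence or exon bases with another gene, for which the differences of medians in the age comparisons were −0.43 and −0.65. The 9 members left out were Ccnb1, Cdc20, Cks2, Gins2, Kif20a, Mcm7, Mybl2, Pcna and Uhrf1. The filter of 1 FPKM moved no value beyond the limits given above. In a promoter window of 150 bases before to 50 after the start, E2F lay in 5 of 8 S phase promoters and CHR and CCAAT in 20 and 21 of 26 mitotic promoters, while CHR lay in 1 of 8 S phase promoters and 12.2% of all, and CHR with CCAAT in 3.66% of all. No paired analysis was possible because each group is 1 library and the labels carry no replicate numbers. If 1 step of the values is 1 fragment, the 30 members with a single transcript had a median of 204 fragments in adult sham cartilage and a lowest value of 13.1.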
